A study of Mus musculus with 22 samples.

Results

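The 52 genes described here encode cytokines, chemokines and the receptors that read them, a set listed by gene symbol for this purpose. Each symbol matched 1 Ensembl row of the deposited count table, so the set is 52 of 23119 genes. The table holds bulk RNA sequencing of striatum from adult male C57BL/6J mice, with no genotype difference between groups. Mice that self-administered oxycodone, an opioid analgesic, at 0.25 mg/kg per infusion in sessions of 4 h per day for 14 days were set against yoked mice infused with saline on the same schedule. There were 6 libraries of each treatment from ventral striatum, and 5 of each from dorsal striatum. The labels do not say how the tissue was dissected, how long after the last session it was taken, or whether each library is a separate animal, so p values measure the spread between these libraries, which may in part be technical. Dorsal oxycodone libraries 2 and 3 carry 1 title number, as do dorsal saline libraries 2 and 3, so each such pair may come from 1 animal.

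Cytokines are small secreted proteins with which cells report injury and infection. Interleukin-1 signals through the adaptor MyD88 and tumour necrosis factor through TRAF proteins, both towards the transcription factor NF-kappaB. Receptors of the interleukin-6, interferon and common gamma chain families signal through JAK kinases and STAT factors, and transforming growth factor beta signals through SMAD proteins. Chemokines steer the movement of leukocytes, and atypical chemokine receptors bind them without the usual G protein signal. In brain, microglia are a main source of interleukin-1 beta and tumour necrosis factor, while neurons make fractalkine (Cx3cl1) and interleukin-34, both of which are read by receptors on microglia.

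Levels are given in CPM, counts scaled to a common library total, with TMM factors over the 22 libraries. A value after ± is the standard error (SE) of a log2 change unless SD is named. Library totals ran from 8408829 to 11000345 counts in ventral and from 11314079 to 21921963 in dorsal striatum. Some ventral libraries stand apart in tissue markers. In ventral saline library 1 the mural cell markers summed to 795 CPM, where the other ventral saline libraries held 184 to 341. Its meningeal fibroblast markers summed to 169 CPM, against 33.2 to 45.7 in ventral saline libraries 2 to 5 and 184 in library 6. The summed level of 8 striatal projection neuron markers was 175 CPM in ventral saline library 6, where the other ventral saline libraries held 2260 to 3050. The sum of 6 choroid plexus markers was 1800 CPM in ventral oxycodone library 6, where the other 5 held 34.2 to 71.6. In the 10 dorsal libraries the projection neuron markers summed to 3990 to 4770 CPM, and the choroid plexus markers to 80.3 to 3590. Low counts in the dorsal libraries were mostly even numbers (66.5% to 74.6% of counts from 1 to 59, against 44.3% to 45.7% in ventral libraries), so the dorsal depth may be overstated; halving the dorsal counts was tried as an alternative.

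In the dorsal striatum the members lay mostly above saline after oxycodone, but none passed the threshold. The members with the lowest p values were Csf2rb, Il4ra, Osmr and Il1b, with fitted fold changes of 3.59, 2.09, 1.85 and 7.73 over saline and adjusted p values of 0.0531 to 0.0912. Of the 42 members with enough counts for the test, 0 had an edgeR adjusted p under 0.05, as did 0.206% of all 14595 genes tested. At an unadjusted p under 0.05, 10 members were higher with oxycodone (3.25% of all genes were) and 0 lower (2.39% of all genes). At an unadjusted p under 0.01, 9 members were higher, against 1.4% of all genes. A positive log2 change was measured for 34 of the 42, or 81%, against 47.9% of all genes, and the median log2 change was 0.25, against -0.01 over all genes. DESeq2 called 5 of the 42 (0.589% of all genes by that tool), and limma-voom with quality weights called 0 (0.219%). Without a filter on low counts every one of the 52 members entered the edgeR test, and 4 were called (0.248% of 18156 genes). With the libraries of 1 title number summed, 1 of 45 members tested was called, Csf2rb (0.266% of all genes).

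**Figure D1:**
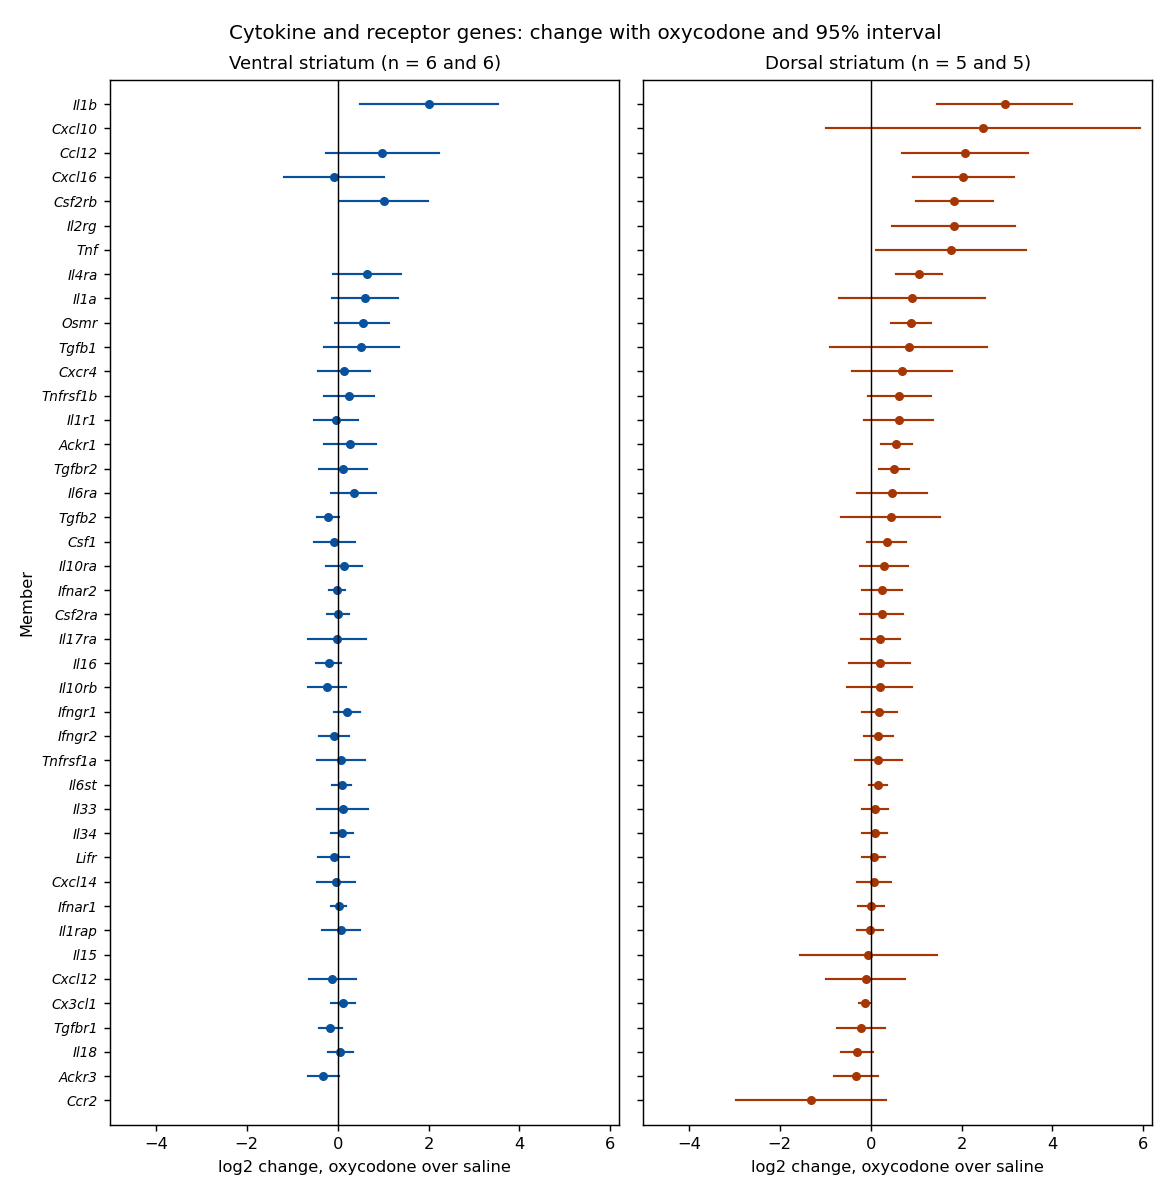
Log2 change of each tested member with oxycodone over saline (points) and its 95% interval (bars) from the edgeR fit, in ventral (left) and dorsal (right) striatum, in order of the dorsal change. In the dorsal panel 34 of 42 points lie above 0, from Il1b at 2.95 to Ccr2 at -1.31, and blank lines in the ventral panel are members too low to test there.

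Among the ligands, Il1b gave the largest log2 change. Il1b (interleukin-1 beta, the inflammatory cytokine cut to its active form by caspase-1) lies at chr2:129364570-129371139 on the minus strand of GRCm38. It held 0, 0.352, 0.575, 1.28 and 0.421 CPM in dorsal saline libraries 1 to 5, and 2.06, 2.99, 1.87, 1.43 and 13.2 CPM in dorsal oxycodone libraries 1 to 5. The groups did not overlap, and oxycodone library 5 lay far above the other 4. The log2 change was 2.95 ± 0.72 (SE; edgeR adjusted p = 0.0912), and 0.843% of all genes were higher without overlap in this comparison. Neither Il1b nor the other tested ligands of the family passed the test: Il1a had a log2 change of 0.9 ± 0.79, Il33 of 0.1 ± 0.14, and Il18 of -0.29 ± 0.17.

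Il1b and Cxcl10 are shown with their upstream DNA because, of the ligands with a mean under 1 CPM in both saline groups, they reached the highest level in any library. The 250 bases before each annotated start are from the RefSeq promoter table for GRCm38.p6, on the minus strand of each chromosome, at chr2:129371140-129371389 for Il1b and chr5:92348890-92349139 for Cxcl10. Capitals mark an interferon-stimulated element (GAAA and again GAAA, 2 bases apart) and matches to the NF-kappaB consensus, searched on both strands.
Il1b: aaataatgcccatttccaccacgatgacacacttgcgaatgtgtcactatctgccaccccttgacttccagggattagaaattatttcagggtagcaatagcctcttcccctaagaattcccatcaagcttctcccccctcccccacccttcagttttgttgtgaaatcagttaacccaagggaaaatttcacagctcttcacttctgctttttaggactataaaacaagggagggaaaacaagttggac
Cxcl10: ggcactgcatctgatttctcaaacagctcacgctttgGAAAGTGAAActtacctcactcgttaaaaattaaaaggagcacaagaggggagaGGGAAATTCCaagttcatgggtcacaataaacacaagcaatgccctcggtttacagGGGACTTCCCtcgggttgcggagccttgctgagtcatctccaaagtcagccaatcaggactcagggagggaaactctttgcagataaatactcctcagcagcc
The Cxcl10 window holds 1 interferon-stimulated element, from 213 to 204 bases before the start, and 2 NF-kappaB matches, from 159 to 150 and from 103 to 94 bases before it. The Il1b window holds no match to either motif. Of 32851 promoters in the table, 2.98% hold the interferon-stimulated element, 3.9% the NF-kappaB consensus and 7.02% the STAT letters TTCNNNGAA. Of the 42 member promoters found in the table, 3, 5 and 5 hold them. None of the 3 motifs was found in the 7 entries for the 9 members with an unadjusted p under 0.01 in dorsal striatum. A match is a description of the letters, not a measured site.

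Cxcl10 (an interferon-induced chemokine for T cells; chosen after its values were seen) had its level in 1 library of each region. It held 19.1 CPM in dorsal oxycodone library 5 and 0.287 to 0.944 CPM in the other 4 dorsal oxycodone libraries, with 0 to 2.59 CPM in dorsal saline. In ventral striatum it held 15.7 CPM in oxycodone library 4, 0.0991 to 1.5 CPM in the other 5, and 0.106 to 0.566 CPM in saline. The dorsal log2 change was 2.47 ± 1.52 (SE; edgeR adjusted p = 0.983), and in ventral striatum Cxcl10 was removed by the filter on low counts. Both high libraries carry the number 7 in their sample titles; the labels do not say whether a number marks an animal. Tnf (tumour necrosis factor) was also highest in those libraries, with 4.44 CPM in dorsal oxycodone library 5 and 3.07 CPM in ventral oxycodone library 4. Its other dorsal libraries held 0.667 to 1.72 CPM with oxycodone and 0 to 1.15 with saline, and the log2 change of 1.76 ± 0.8 had an edgeR adjusted p of 0.83.

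Of the chemokines, Cxcl16 and Ccl12 were nearest the threshold in dorsal striatum. Cxcl16 (a chemokine made both as a membrane-bound and as a soluble form; chr11:70453983-70459984) held 0.177, 0.879, 0.719, 1.69 and 2.48 CPM in saline and 2.67, 7.01, 4.38, 2.22 and 9.03 CPM in oxycodone libraries 1 to 5. In 4 of 5 oxycodone libraries it was above every saline library. Its log2 change was 2.04 ± 0.55 (SE; edgeR adjusted p = 0.16). Its exons overlap those of Zmynd15 on the other strand, which held mean levels of 0.474 CPM in dorsal saline and 0.584 CPM in dorsal oxycodone; the strand setting of the counting is not given in the sources used here.

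Ccl12 (a mouse chemokine for monocytes; chr11:82101845-82103400) held 1.06, 0.0879, 2.16, 0.865 and 0.421 CPM in dorsal saline and 4, 3.45, 0.359, 4.16 and 7.53 CPM in dorsal oxycodone. Oxycodone library 3 lay within the saline range and the other 4 above it. On the log2 scale Ccl12 differed by 2.08 ± 0.67 (SE; edgeR adjusted p = 0.403). Its close relative Ccl2 was too low to test, with mean levels of 0.18 CPM in saline and 0.605 CPM in oxycodone. Chemokines at higher levels lay close to saline: Cx3cl1 had a log2 change of -0.13 ± 0.07, Cxcl14 of 0.07 ± 0.18, and Cxcl12 of -0.11 ± 0.43. Ccr2, the monocyte receptor for Ccl2 and Ccl12, had the most negative change of the tested members, -1.31 ± 0.81 (SE; edgeR adjusted p = 0.975).

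Among the receptors, Csf2rb had the lowest p value of any member. Csf2rb (the shared signalling chain of the receptors for granulocyte-macrophage colony-stimulating factor, interleukin-3 and interleukin-5; chr15:78325752-78353847) held 1.6, 0.791, 2.95, 1.87 and 2.06 CPM in dorsal saline libraries 1 to 5. In dorsal oxycodone libraries 1 to 5 it held 4.67, 6.38, 4.09, 5.45 and 13 CPM, each above every saline library. The log2 change was 1.84 ± 0.42 (SE; edgeR adjusted p = 0.0531). Its near-identical neighbour Csf2rb2, between which and Csf2rb reads may be split, held means of 0.579 CPM in saline and 1.16 CPM in oxycodone and was too low to test. The partner chain Csf2ra had a log2 change of 0.24 ± 0.23, and the ligand Csf1, a growth factor for microglia, one of 0.35 ± 0.21.

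Il4ra (a chain of the receptors for interleukins 4 and 13, chr7:125552120-125579474) held 7.72, 15.3, 11.6, 17.8 and 7.06 CPM in dorsal saline and 19.4, 27.5, 17, 23.6 and 36.8 CPM in dorsal oxycodone. Oxycodone library 3 lay below the highest saline library, and the other 4 lay above it. For Il4ra this gave a log2 change of 1.06 ± 0.24 (SE; edgeR adjusted p = 0.0654). Il2rg (the common gamma chain; chrX:101264378-101268255) pairs with Il4ra in one receptor form, and held 0.266 to 1.51 CPM in saline and 1, 1.84, 1.65, 2.87 and 4.95 CPM in oxycodone libraries 1 to 5. Its log2 change was 1.83 ± 0.66 (SE; edgeR adjusted p = 0.513). A gene model that shares exon sequence with Il2rg on the same strand had 0 counts throughout. How reads in the shared exons were counted is not given, so this 0 does not show whether Il2rg lost reads. The remaining chains of this group were nearer saline, with log2 changes of 0.29 for Il10ra, 0.2 for Il10rb and 0.21 for Il17ra.

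Osmr (the oncostatin M receptor chain, of the interleukin-6 family; chr15:6813577-6874969) held 12.9, 12, 15.3, 22.2 and 16.1 CPM in dorsal saline and 29.6, 18, 21.2, 33.1 and 43.9 CPM in dorsal oxycodone. Saline library 4 lay above 2 of the oxycodone libraries, and the other 3 lay above all saline libraries. Osmr had a log2 change of 0.88 ± 0.21 (SE; edgeR adjusted p = 0.0815). The family's shared chain Il6st (gp130) had a log2 change of 0.16 ± 0.09, Lifr one of 0.07 ± 0.12, and Il6ra one of 0.47 ± 0.38. The ligands Il6 and Lif were too low to test.

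Tgfbr2 (the ligand-binding receptor for transforming growth factor beta; chr9:116084293-116175360) held 28.7, 22.5, 21.4, 19.2 and 20.8 CPM in dorsal saline and 32.2, 35.6, 27, 25.4 and 40.3 CPM in dorsal oxycodone. Oxycodone libraries 3 and 4 lay below saline library 1. Tgfbr2 had a log2 change of 0.52 ± 0.16 (SE; edgeR adjusted p = 0.367). Its partner Tgfbr1 had a log2 change of -0.21 ± 0.25, and the ligands Tgfb1 and Tgfb2 had changes of 0.84 ± 0.85 and 0.44 ± 0.53. Among receptors for tumour necrosis factor, Tnfrsf1b, the form found mainly on immune cells, had a log2 change of 0.63 ± 0.34, and Tnfrsf1a one of 0.17 ± 0.26. The 4 interferon receptor chains had changes between 0.01 for Ifnar1 and 0.25 for Ifnar2.

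Ackr1 (an atypical chemokine receptor of red cells and venule endothelium; chr1:173331886-173333750) held 24, 31.3, 32.5, 26.2 and 16.9 CPM in dorsal saline and 29.9, 36, 34.1, 43.7 and 49.2 CPM in dorsal oxycodone. Oxycodone library 1 lay within the saline range. The log2 change was 0.56 ± 0.17 (SE; edgeR adjusted p = 0.301). Ackr1 shares exon sequence with Cadm3 on the same strand, so reads there are of uncertain origin; Cadm3 held means of 164 CPM in saline and 174 CPM in oxycodone, with a log2 change of 0.09. The other atypical receptor, Ackr3, which takes up Cxcl12, had a log2 change of -0.33 ± 0.24.

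**Figure D2:**
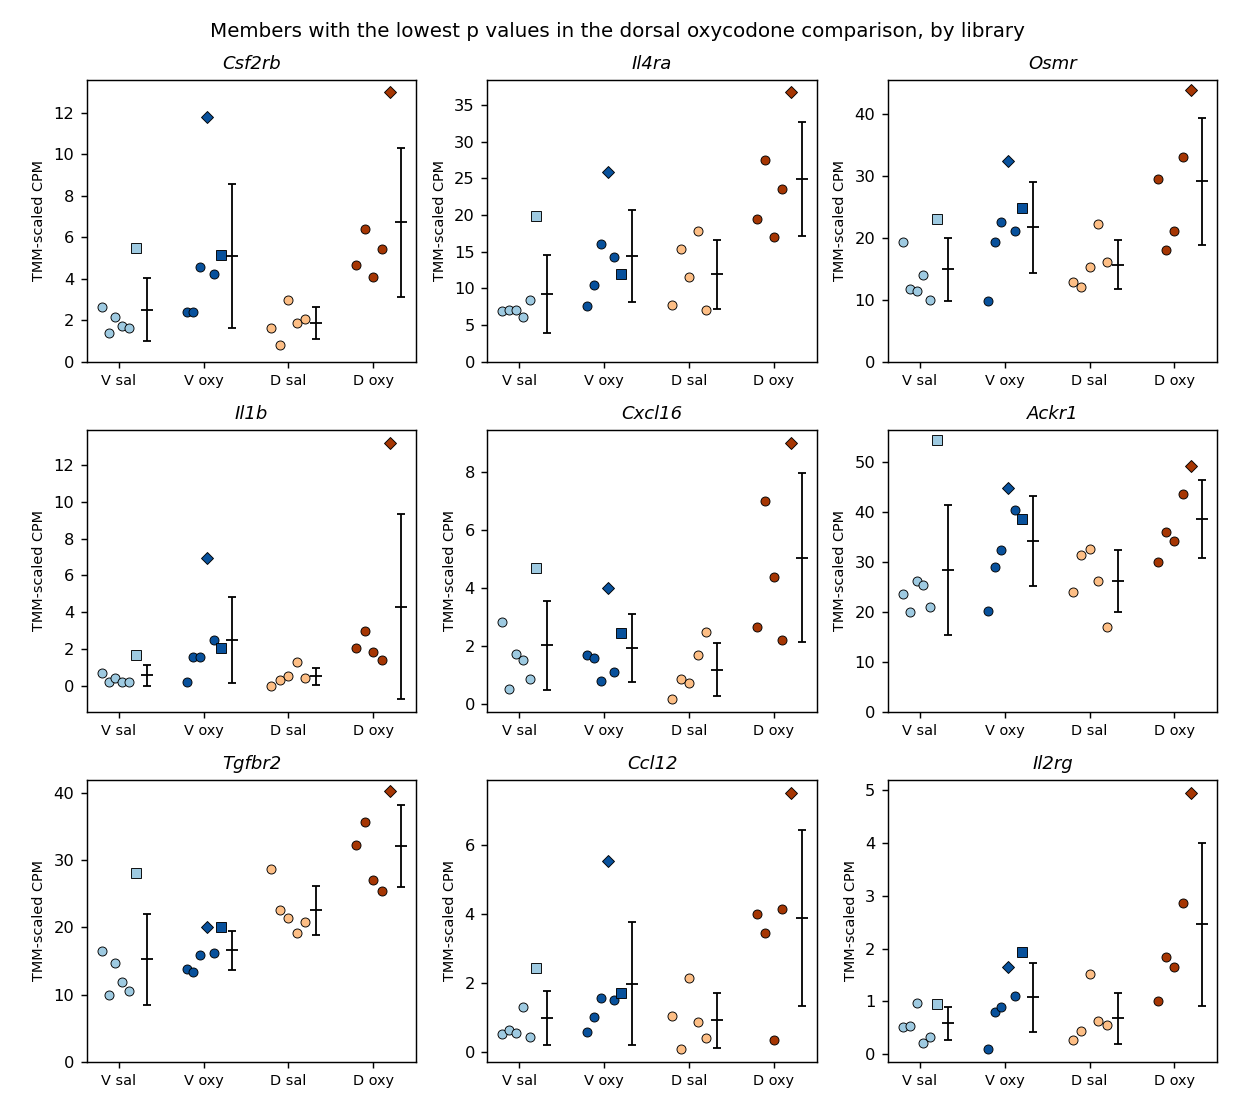
TMM-scaled CPM in each library for the 9 members with an unadjusted p under 0.01 in the dorsal comparison, with mean and standard deviation beside each group (V ventral, D dorsal, sal saline, oxy oxycodone). Squares mark the sixth ventral libraries and diamonds the libraries of title number 7 (ventral oxycodone 4 and dorsal oxycodone 5), which hold the highest oxycodone value of their region in most panels, such as 13.2 CPM for Il1b in dorsal striatum.

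Dorsal oxycodone library 5 held the highest level of 23 of the 42 tested members, or 54.8%, against 11.4% of all genes. Without it, 8 members were higher and 1 was lower at an unadjusted p under 0.05 (2.32% and 2.13% of all genes). Of the 42 log2 changes, 34 were above 0 (48% of all genes) and the median was 0.14. The adjusted edgeR test then called 0 members and 0.0948% of all genes. The members higher without it were Cxcl16, Osmr, Il1b, Il4ra, Tgfbr2, Ccl12, Ackr1 and Csf2rb, and the lower one was Ccr2. Their log2 changes then ran from 0.42 for Tgfbr2 to 1.93 for Il1b, and the lowest edgeR adjusted p was 0.295, for Il4ra. Il1b moved most, from 2.95, and Csf2rb went from 1.84 to 1.46.

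Markers of blood and immune cells varied over the same dorsal libraries. The summed level of 10 microglial markers was 473 to 502 CPM in saline and 500 to 609 CPM in oxycodone, where 1 of 10 had an unadjusted p under 0.05, Csf1r with a log2 change of 0.25. The 8 neutrophil markers summed to 2.75 to 12.3 CPM in saline, with Ly6g at 0 in every saline library, and to 8.39 to 19.7 CPM in oxycodone. The 5 tested all had a positive log2 change, from 0.27 to 2.02, and 0 passed the test. The 8 markers of monocytes and border macrophages summed to 58.7 to 76.3 and 55.3 to 107 CPM, and 1 of the 6 tested, Plac8, rose with a log2 change of 2.12 and an edgeR adjusted p of 0.015. Of the 6, 3 had a positive and 3 a negative log2 change, down to -1.18 for Ms4a7, which did not pass the test. The 6 red cell markers summed to 410 to 631 and 596 to 1790 CPM. All 6 had a positive log2 change, from 0.74 to 1.62, and 5 an unadjusted edgeR p under 0.05. The 1 that passed the test was Alas2, the erythroid enzyme of haem synthesis, with a log2 change of 0.76 and an edgeR adjusted p of 0.0197. Of the 8 lymphocyte markers 7 were too low to test, and the 1 tested had a log2 change of -0.12. Lymphocyte markers summed to 43.5 to 65.7 and 47.1 to 54.2 CPM, with Cd3e and Ms4a1 at 0 in all dorsal libraries. All of these but the lymphocyte sums were highest in oxycodone library 5. So were those of other cell types: astrocyte markers summed to 2260 CPM there (1610 to 1840 in the other 9 dorsal libraries), endothelial markers to 378 CPM (242 to 300) and mural cell markers to 356 CPM (258 to 305). Their part in the members' levels was not tested, and in bulk tissue more cells of a type and more RNA per cell cannot be told apart.

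In the ventral striatum no member passed the threshold either, and Il1b and Csf2rb had the lowest p values. Of 37 members tested, 0 had an edgeR adjusted p under 0.05, as did 0% of 14116 genes; DESeq2 and limma-voom also called 0 members (0.269% and 0.432% of all genes). At an unadjusted p under 0.05, 2 members were higher, Il1b and Csf2rb (4.94% of all genes), and 0 were lower (4.19% of all genes). A positive log2 change was measured for 23 of 37, or 62.2%, against 49.1% of all genes, and the median was 0.07, against 0. By limma-voom 15 members were higher and 1 was lower at an unadjusted p under 0.05 (8.93% and 7.77% of all genes). With that tool 30 of 37 log2 changes were above 0, against 50.3% of all genes, and their median was 0.2. Il1b held 0.213 to 1.7 CPM in ventral saline, with a median of 0.324, and 0.198 to 6.96 CPM in oxycodone, with a median of 1.82. Its log2 change was 2.02 ± 0.7 (SE; edgeR adjusted p = 0.481). Csf2rb held 1.38 to 5.47 CPM, median 1.95, in saline and 2.38 to 11.8 CPM, median 4.39, in oxycodone, for a log2 change of 1.01 ± 0.45 (SE; edgeR adjusted p = 0.526).

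Side by side with their dorsal values, Il4ra had a ventral log2 change of 0.64 (dorsal 1.06), Osmr 0.55 (0.88), Ccl12 0.98 (2.08), Ackr1 0.27 (0.56) and Tgfbr2 0.12 (0.52). Cxcl16 had -0.08 in ventral striatum and 2.04 in dorsal. The difference between regions was itself tested in a fit of the 22 libraries. Of 44 members tested there, 0 had an edgeR adjusted p under 0.05 (0% of 14938 genes), and DESeq2 and limma-voom called 0 as well. At an unadjusted p under 0.05, 1 member, Cxcl16, had a higher change in dorsal striatum (2.02% of all genes did), by 2.11 ± 0.78 (SE; edgeR adjusted p = 0.981).

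The ventral counts moved with saline library 6, the one with few projection neuron transcripts. In that library the cortical glutamatergic neuron markers summed to 1610 CPM (122 to 425 in the other 5 ventral saline libraries), the red cell markers to 695 CPM (126 to 270), the neutrophil markers to 24.7 CPM (2.24 to 6.59) and the endothelial markers to 349 CPM (169 to 243); their part in the members' levels was not tested. It held the highest level of 18 of 37 members, or 48.6%, against 22.7% of all genes, among them Il4ra at 19.9 CPM where the other 5 saline libraries held 6.04 to 8.33. Without it, 15 members were higher and 1, Tgfb2, was lower at an unadjusted p under 0.05 (7.54% and 5.71% of all genes), still with 0 adjusted calls. The log2 changes were then 2.72 for Il1b, 1.51 for Ccl12, 1.42 for Csf2rb, 1.03 for Il4ra, 0.71 for Osmr, 0.57 for Ackr1, 0.39 for Tgfbr2 and 0.37 for Cxcl16, with adjusted p values from 0.194 for Il4ra to 0.781 for Cxcl16. Without both sixth libraries, 8 of 35 members were higher and 0 lower (5.19% of all genes were higher and 5.19% lower). Without ventral oxycodone library 4, 1 member was higher and 2 were lower (4.4% and 4.07% of all genes). The log2 changes were then 1.38 for Il1b, 0.57 for Csf2rb and 0.36 for Ccl12.

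**Figure D3:**
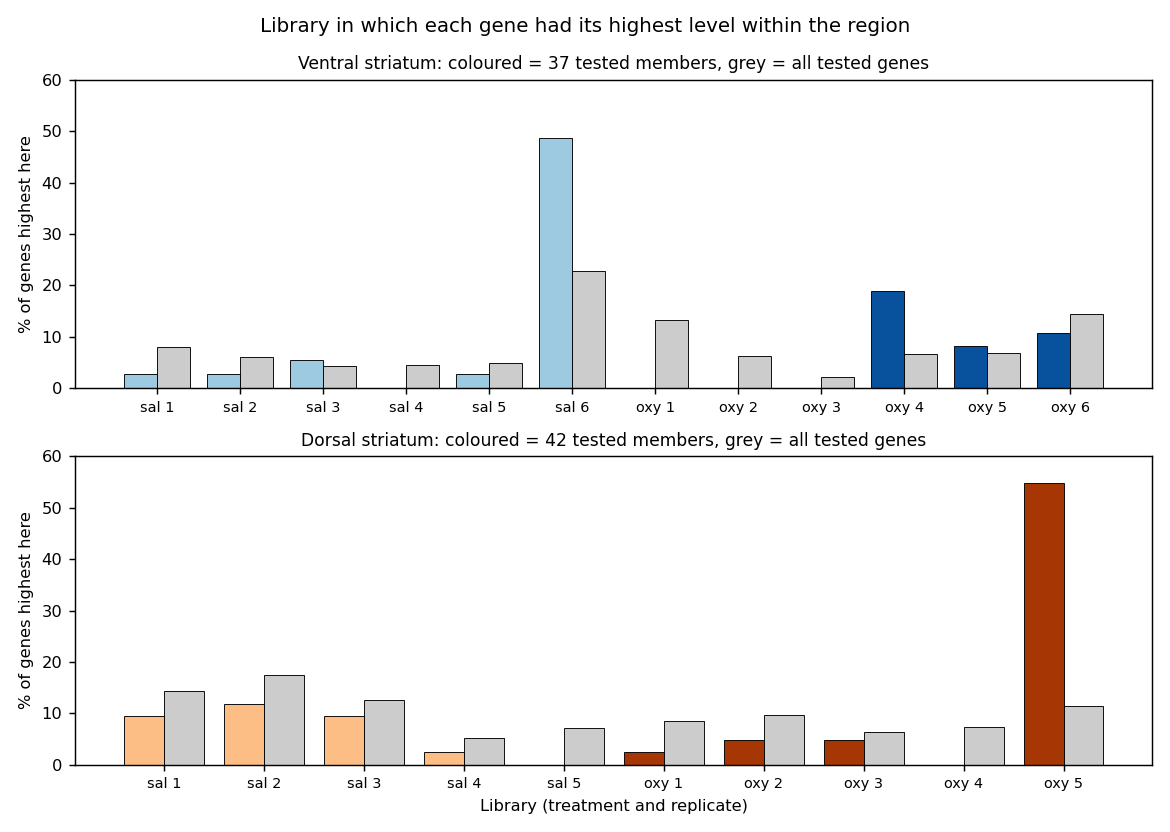
For each library, the share of tested members (coloured bars) and of all tested genes (grey bars) whose highest level within the region was in that library, in percent. Dorsal oxycodone library 5 held 54.8% of members against 11.4% of genes, and ventral saline library 6 held 48.6% against 22.7%.

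Genes that act downstream of these receptors were read from 3 lists of 37 genes in all. In dorsal striatum 0 of 37 had an edgeR adjusted p under 0.05 (0.206% of all genes did). At an unadjusted p under 0.05, 7 were higher (3.25% of all genes) and 1 was lower (2.39%). The log2 change was above 0 for 24 of 37, or 64.9%, against 47.9% of all genes, and the median was 0.18, against -0.01. The 3 with the lowest p were higher without overlap between groups, as were 0.843% of all genes. Tnfaip3, an NF-kappaB target that shuts the pathway off, held 5.03 to 9.2 CPM in saline and 10.4 to 22.1 CPM in oxycodone, with a log2 change of 0.89 ± 0.26 (SE; edgeR adjusted p = 0.271). Stat3, the factor used by the interleukin-6 family, held 69.9 to 85.5 CPM in saline and 85.8 to 125 CPM in oxycodone, with a log2 change of 0.34 ± 0.11 (SE; edgeR adjusted p = 0.372). Myd88 held 1.42 to 4.65 CPM in saline and 5.05 to 7.81 CPM in oxycodone, with a log2 change of 1.08 ± 0.38 (SE; edgeR adjusted p = 0.488). Others under 0.05 included Socs3, Jak3 and Tyk2, each higher, and Traf2, lower, with a log2 change of -0.58.

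In ventral striatum 0 of 35 of these genes had an edgeR adjusted p under 0.05 (0% of all genes). At an unadjusted p under 0.05, 5 were higher (4.94% of all genes) and 1 was lower (4.19%). The log2 change was above 0 for 29 of 35, or 82.9%, against 49.1% of all genes, and the median was 0.17, against 0. Jak2, a kinase of many cytokine receptors, held 113 to 168 CPM in saline and 173 to 220 CPM in oxycodone without overlap (0.312% of all genes were higher without overlap), with a log2 change of 0.38 ± 0.09 (SE; edgeR adjusted p = 0.35). Nfkbia, the NF-kappaB inhibitor, had a log2 change of 0.51 ± 0.2 (SE; edgeR adjusted p = 0.505), and Smad2 had -0.19 ± 0.07 (SE; edgeR adjusted p = 0.487). The lowest ventral Jak2 level was in saline library 6.

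Fractalkine was the member with the highest level, and in saline tissue the one with the lowest p value between regions. Per kilobase of exon, Cx3cl1 ranked first of the 52 members in every group, with 175 CPM per kilobase in dorsal saline, 161 in dorsal oxycodone, 107 in ventral saline and 115 in ventral oxycodone. The next in order were Ackr1, Il18 and Il34, at 14.2 to 27.4 CPM per kilobase in the 4 groups, whose order among themselves changed between groups. The place of Ackr1 is uncertain, because it shares exon sequence on the same strand with Cadm3, which held group means of 164 to 199 CPM. Il33, Il6st and Cxcl14 followed at 8.8 to 12.9. Il18, an interleukin-1 relative, held group means of 17.6 ± 3.26 (SD, n = 5) to 21.6 ± 2.04 CPM (SD, n = 5), a range within the spread of the libraries. Il34 held 27.8 ± 3.84 (SD, n = 6) to 34.4 ± 1.26 CPM (SD, n = 5).

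In saline mice, 7 of 36 members tested differed between dorsal and ventral striatum at an edgeR adjusted p under 0.05, or 19.4%, against 45.8% of all 14433 genes. Cx3cl1 was the 1 member higher in dorsal striatum, as were 23.6% of all genes, and 6 members were lower, as were 22.3%. Without ventral saline library 6 the calls among 35 members were 7 higher and 5 lower (50.7% of all genes called), and by limma-voom 7 higher and 6 lower (54.4%). Cx3cl1 held 664 to 729 CPM in dorsal saline and 376 to 575 CPM in ventral saline, where library 6 was the highest. The groups did not overlap, as for 16.3% of all genes higher in dorsal tissue. The log2 difference was 0.71 ± 0.1 (SE; edgeR adjusted p = 6.7e-05). Region cannot be told apart from the set of libraries in which it was sequenced, which differed in depth and in the evenness of low counts.

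The 6 members lower in dorsal than in ventral saline tissue included Tgfb2 and Cxcl12 at more than 2-fold (13.3% of all genes were called at such a fold in either direction). Tgfb2 (transforming growth factor beta 2) held 0.887, 1.41, 3.45, 4.15 and 3.27 CPM in dorsal saline and 7.45 to 9.46 CPM in ventral saline, median 8.27. The groups did not overlap (14.1% of all genes were lower in dorsal tissue without overlap), and the log2 difference was -1.64 ± 0.33 (SE; edgeR adjusted p = 0.00093). Cxcl12 (the ligand of Cxcr4, made by vessels, meninges and some neurons) held 4.17, 2.37, 3.52, 4.6 and 2.8 CPM in dorsal saline and 5.95 to 17.2 CPM in ventral saline, median 7.57, again without overlap. Its log2 difference was -1.39 ± 0.3 (SE; edgeR adjusted p = 0.00165). Leaving out ventral saline library 6 gave -1.08 (adjusted p = 0.00183). The others were Il6st at -0.39, Ifnar2 at -0.46, Il16 at -0.91 and Csf1 at -0.65. Il16 shares exon sequence with Stard5 on the other strand. Ifnar2 shares exon sequence on the same strand with a gene model, also shared by Il10rb, that had a mean of 0 CPM in every group. How reads in those exons were counted is not given.

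In oxycodone mice, 12 of 40 members tested differed between regions, or 30%, against 47.2% of 14375 genes. Of these 8 were higher in dorsal striatum (23.5% of all genes): Tgfbr2, Cx3cl1, Tnfrsf1a, Cxcl16, Il33, Il4ra, Cxcr4 and Il1rap. The 4 lower (23.7% of all genes) were Cxcl12, Ifnar1, Il6st and Il16. Tgfbr2 held 25.4 to 40.3 CPM in dorsal and 13.3 to 20.1 CPM in ventral oxycodone libraries, without overlap (15.1% of all genes were higher in that way), for a log2 difference of 0.93 ± 0.15 (SE; edgeR adjusted p = 8.04e-05). Cx3cl1 differed by 0.46 (adjusted p 0.000751) and Cxcl12 by -1.39 (adjusted p 0.000444), in the same direction as in saline. Without ventral saline library 6, Tgfbr2 differed in saline tissue as well, by 0.84 with an adjusted p of 0.000461.

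Tgfb2 was called between regions in saline tissue and not in oxycodone tissue. With oxycodone it held 1.5, 1.26, 4.6, 2.15 and 8.6 CPM in dorsal and 6.02 to 9.12 CPM in ventral libraries, for a log2 difference of -1.02 and an adjusted p of 0.0565. Without dorsal oxycodone library 5 the difference was -1.59 with an adjusted p of 0.00123. Whether the regional difference itself differed with treatment gave an interaction adjusted p of at least 0.91 in every fit with a library left out.

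**Figure D4:**
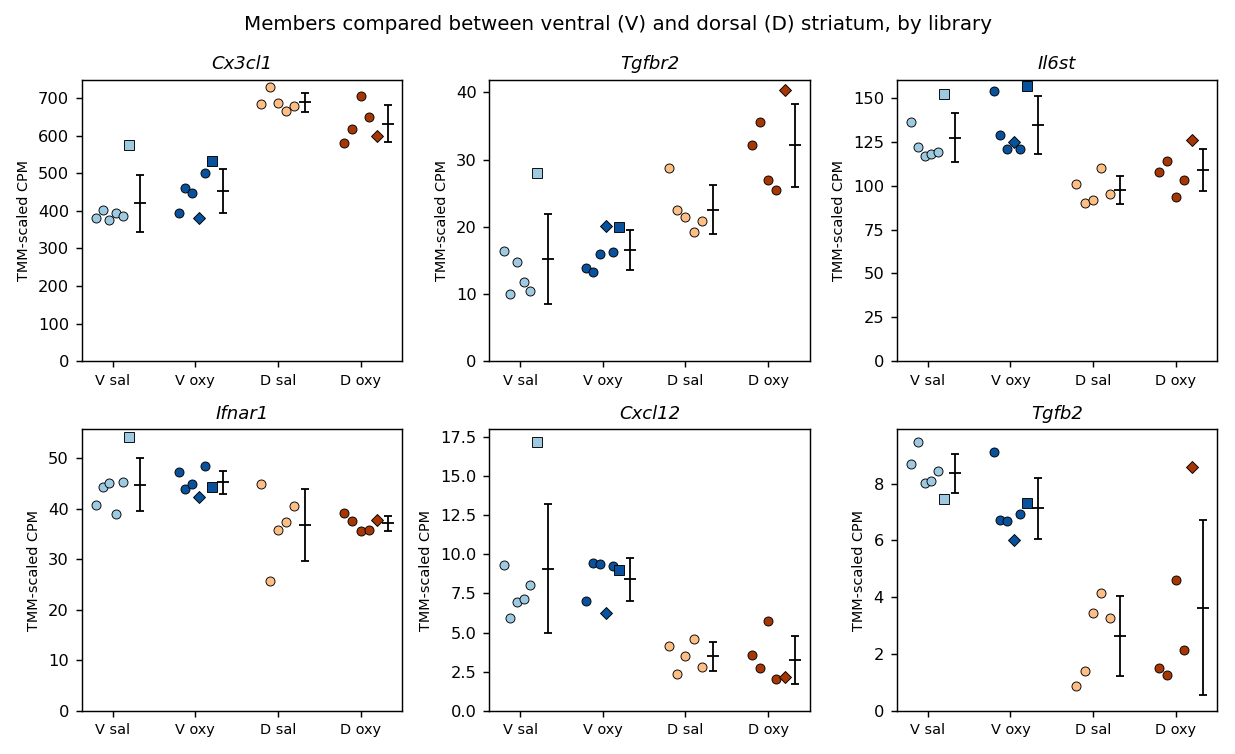
TMM-scaled CPM of 6 members in each library by region and treatment, with mean and standard deviation beside each group (V ventral, D dorsal; squares are the sixth ventral libraries, diamonds the libraries of title number 7). Cx3cl1 was called higher in dorsal tissue, and Il6st and Cxcl12 lower, under both treatments. Tgfbr2 (higher) and Ifnar1 (lower) were called with oxycodone but overlap in saline, where ventral library 6 holds 28 CPM of Tgfbr2, and Tgfb2 (lower) was called in saline but overlaps with oxycodone, where dorsal library 5 holds 8.6 CPM.

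Too low to judge in both oxycodone comparisons were 10 members: the chemokines Ccl2, Ccl3, Ccl4, Ccl5 and Cxcl1, the chemokine receptor Ccr1, the interleukin-1 receptor antagonist Il1rn and decoy receptor Il1r2, and the ligands Il6 and Lif. Their highest counts in any library ran from 5 for Il6, which had 0 counts in 18 of 22 libraries, to 44 for Cxcl1. A count of 0 allows up to 3 counts in a library, for counting error only. Too low in the ventral comparison alone were 5: Ccr2, Cxcl10, Il15, Il2rg and Tnf. No member was too low in dorsal striatum alone. With the dorsal counts halved, 35 members entered the dorsal test, against 42 with the counts as deposited. How many can be judged in dorsal striatum therefore depends on the depth taken for those libraries. With no filter on low counts every one of the 52 members entered the ventral test, where 6 were higher at an unadjusted p under 0.05 (4.38% of all genes) and 0 were called. Between regions 16 members were too low in saline, among them Il1a, Il1b, Ccl12, Tnf, Il2rg and Cxcl10, and 12 in oxycodone tissue.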

How the data were processed

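RNA sequencing libraries were made from column-purified total RNA with a stranded kit that depletes ribosomal RNA, per the labels' protocols. The authors deposited raw counts per Ensembl gene, made with CASAVA 1.8.2, STAR 2.3 and featureCounts per the submitters' processing notes, which name mm10, GRCm38 and mm9 without a role. Strandedness of the counting, handling of reads with several matches and whether mates counted once are not given in the sources used here. Symbols and positions are from GENCODE M21 (GRCm38), matched by gene identifier for 22282 of 23119 genes; promoter sequences are from RefSeq.

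Each oxycodone comparison was fitted within its region, each regional comparison within its treatment, and the interaction over the 22 libraries. The test was the two-sided edgeR 4.0.16 quasi-likelihood test with robust dispersions in R 4.3.3, with TMM factors and filterByExpr. Benjamini-Hochberg adjustment covered every gene tested, and an adjusted p under 0.05 was a call. A member removed by filterByExpr was called too low to judge. The fits were tested on simulated counts. Within groups, no pair of libraries agreed within sampling noise (lowest chi-square per degree of freedom 2.88 over 50 pairs), so none was treated as a repeat deposit of another; this does not show that they are separate animals. Levels are means of TMM-scaled CPM.

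The members, their roles, the pathway lists and the marker lists were chosen with earlier results of these data known. Values by library or their range are given for members past the threshold in an oxycodone comparison or with an unadjusted p under 0.01 there. The same holds for members past the threshold between regions in saline with a fold of at least 2. The 5 members highest per kilobase in each region are given by level per kilobase, some with group means. Pathway genes given with an SE are the 3 with the lowest p in each oxycodone comparison. Socs3, Jak3, Tyk2 and Traf2 are named beside them. Cxcl10, Tnf, Ccr2 and the other members given by log2 change alone complete the account of the set. Alternatives were DESeq2 1.42.0, its scaling factors, limma-voom with quality weights (limma 3.58.1), no filter, lane or title suffix as a covariate, libraries of 1 title number summed, title number as a block across regions, and leaving out each library. Halved dorsal counts, and the block's libraries fitted without the block, were added after seeing the data. One gene of the pathway lists is not reported here.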

Additional observations from a re-analysis of the deposited data

Results flagged for a closer look

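Dixon's test was used to find libraries far from their nearest neighbour. For normally distributed values, chance sets apart about 1 in 20. The share over all genes was not computed, and many named members were chosen by p value in these same data. The count below is therefore not a measured trait of the members. Of 64 sets of values (a named member in a group), 14 held such a library. Of these, 7 were in ventral saline library 6, where Il1b held 1.7 CPM (next library 0.734), Il4ra 19.9 (next 8.33), Tgfbr2 28 (next 16.4), Ackr1 54.5 (next 26.2), Csf2rb 5.47 (next 2.62), Cxcl12 17.2 (next 9.33) and Cx3cl1 575 (next 403). In ventral oxycodone library 4 there were 3: Il1b at 6.96 CPM (next 2.51), Ccl12 at 5.54 (next 1.72) and Csf2rb at 11.8 (next 5.15). In dorsal oxycodone library 5 there were 2: Il1b at 13.2 CPM (next 2.99) and Csf2rb at 13 (next 6.38). The last pair concern Il33, highest in ventral oxycodone library 6 at 39.8 CPM (next 27.1) and lowest in dorsal oxycodone library 2 at 32.9 CPM (next 37.3).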

How the results depend on the processing

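The ventral and interaction counts of 0 members called were the same under every alternative run. The dorsal count of 0 became 4 of 52 with no filter on low counts (Osmr, Il1b, Il4ra and Csf2rb), against 0.248% of all genes. It became 5 of 42 with DESeq2 (those and Cxcl16), against 0.589%. It was 1 of 45 with summed pairs (0.266%) and 1 of 35 with halved dorsal counts (0.248%), Csf2rb in both. With 1 library left out it ran from 0 to 3. In those fits 42 to 45 members were tested and 0.00677% to 0.425% of all genes called. In the saline comparison of regions the count of 7 of 36 became 13 of 36 with limma-voom (54.4% of all genes). It was 11 of 36 for the libraries of the block fitted with no block (44.7%). With 1 library left out it ran from 6 to 12, 12 being without ventral saline library 6. In those fits 35 to 38 members were tested and 41.4% to 50.7% of all genes called. In the oxycodone comparison of regions the count of 12 ran from 8 to 13 with 1 library left out. Those fits tested 40 to 43 members and called 41.6% to 47.5% of all genes. Same-numbered libraries of the regions did not deviate together throughout (1 of 10 dorsal libraries correlated best with its own number), so the numbers were not taken to pair them. With title number as a replicate block, 8 of 36 members were called in saline (40.4% of all genes) and 15 of 45 in oxycodone tissue (45%). The same oxycodone libraries with no block gave 11 of 45 (43.2%). The labels do not say which saline mouse was yoked to which oxycodone mouse, so the oxycodone fits ignored the yoking. The oxycodone and saline groups share no title number within a region, and neighbouring numbers were not tried as pairs. Single members that changed sign did so at values that did not pass the threshold. In the ventral comparison, limma-voom and the fit without both sixth libraries gave 0.16 and 0.28 for Cxcl16, 0.23 and 0.15 for Cxcl12, -0.01 and -0.04 for Il18, and -0.05 and -0.22 for Il33. With 1 library left out, the ventral ranges were -0.42 to 0.37 for Cxcl16, -0.22 to 0.18 for Cxcl12, -0.05 to 0.11 for Il18 and -0.07 to 0.21 for Il33. In the dorsal comparison Tgfb2 was -0.08 by limma-voom, and with 1 library left out Tgfb2 ranged from -0.17 to 0.66 and Cxcl12 from -0.41 to 0.02. Between regions in saline, limma-voom gave 0.02 for Cxcl16, 0 for Ackr1, 0.03 for Csf2rb and -0.05 for Il18; the replicate block gave 0.13 for Ackr1 and -0.04 for Il18, and its libraries with no block 0.2 and -0.03. With 1 library left out, Ackr1 ranged from -0.22 to 0.18, Osmr from -0.09 to 0.26 and Il18 from -0.01 to 0.15 in saline, and Il1b from -0.23 to 1.41 in oxycodone. For the interaction, limma-voom gave -0.14 for Il1b, -0.13 for Osmr, -0.02 for Il4ra, -0.46 for Cxcl12 and -0.08 for Il34; leaving out both sixth libraries gave -0.03 for Il4ra, -0.27 for Cxcl12 and -0.11 for Il34. DESeq2 and its size factors each gave -0.01 for Il34 and 0 for Il33, and the ranges with 1 library left out were -0.13 to 1.55 for Il1b, -0.29 to 0.14 for Cxcl12, -0.08 to 0.06 for Il34 and -0.11 to 0.18 for Il33. The cause of these changes was not tested. The 10 members too low in both regions could not be judged at this depth, and whether more depth would change that was not tested.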

Other observations

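The sample titles give the number 7 to ventral oxycodone library 4 and to dorsal oxycodone library 5, and the following was chosen after these values were seen. Of 37 members tested in both regions, ventral library 4 was the highest oxycodone library for 17 and dorsal library 5 for 22. For 15 members, or 40.5%, both were the highest, against 6.26% of 13922 genes tested in both regions. The 15 were Il1b, Il1r1, Osmr, Lifr, Il4ra, Tnfrsf1a, Tnfrsf1b, Tgfbr2, Ifnar2, Ccl12, Cxcl16, Ackr1, Ackr3, Csf1 and Csf2rb. In the same libraries the 6 red cell markers summed to 803 CPM (the other ventral oxycodone libraries held 138 to 413) and 1790 CPM (596 to 1260 in the other dorsal ones), and the 8 neutrophil markers to 25.2 CPM (5.75 to 11) and 19.7 CPM (8.39 to 9.54). Ventral saline library 6, of title number 12, held similar sums, 695 CPM of red cell and 24.7 CPM of neutrophil markers. Endothelial markers summed to 307 and 378 CPM in the number 7 libraries. The other oxycodone libraries held 222 to 290 in ventral and 262 to 300 in dorsal striatum. Monocyte and border macrophage markers summed to 76.1 (49.2 to 68.7) and 107 CPM (55.3 to 82.5). Oligodendrocyte markers were lowest there, at 1200 (1330 to 3090) and 2640 CPM (3020 to 3970). Socs3, the feedback inhibitor of STAT3 signalling, held 5.78 CPM in ventral library 4 (1.29 to 2.51 in the other oxycodone libraries) and 7.6 CPM in dorsal library 5 (1.44 to 5.17). Whether the number 7 libraries come from 1 mouse is not given in the labels. The part of blood or of the other cell types in the members' levels was not tested.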
